A study of Mus musculus with 9 samples.

Results

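Cytosolic ribosomal protein genes encode the protein subunits of the 80S ribosome in the cytoplasm and were chosen by name: protein-coding mouse genes with Rpl or Rps symbols, Rplp0, Rplp1, Rplp2 and Rpsa, leaving out Rps27l and the Rps6k kinases. The rule, applied to symbols of the GENCODE M21 annotation, gave 82 of the 55401 gene IDs counted, 31 of the small (40S) subunit and 51 of the large (60S) subunit. They were followed in poly(A) RNA of Thio-elicited primary peritoneal macrophages of 3 Stat6 genotypes: S807E/S807E mice (SE), S807A/S807A mice (SA) and wild-type mice (WT), with 3 libraries each. S807E and S807A exchange a serine of STAT6, a transcription factor activated by interleukin signalling, for glutamate and for alanine. Both mutant groups are homozygous for their allele in the labels, and no label names a promoter, a Cre line, a treatment or an age. All 9 cultures shared DMEM with 10% fetal bovine serum and a short adherence before RNA was taken.

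A ribosome holds 1 copy of nearly every ribosomal protein, so cells make these proteins in matched amounts, and their messages are among the most abundant in a cell. Their promoters commonly lack a TATA box and start transcription at a cytosine within a run of pyrimidines (the TOP motif), through which mTORC1 and LARP1 set how well the messages are translated. Subunits are built in the nucleolus with the help of assembly factors, many of whose genes are targets of MYC. In macrophages, growth and activation signals are known to act on ribosome production.

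Library totals ran from 17286617 to 24618608 counts. Of the 82 genes, 79 passed the filter on low counts and were tested among 13501 genes, 31 of the small and 48 of the large subunit. The 8 macrophage markers, Lyz2, Csf1r and Adgre1 among them, summed to 18206 CPM or more in every library. CPM are counts scaled to the tested-gene total of the library multiplied by its TMM factor, which adjusts for differences between libraries. Of the 8, 3 were called lower in SE than WT (background, the share over all genes tested, 2.69%). Another comparison, SE against SA, had 2 lower (5.42%), and 1 was higher in SA than WT (1.97%). Eosinophil markers reached 28.5 CPM, endothelial markers 25.4 CPM, and neutrophil and dendritic cell markers 2.79 and 2.86 CPM, while summed B cell, T and NK cell, mast cell and red cell markers stayed at or below 1.72 CPM in every library, with 2 of 6, 3 of 5, 2 of 4 and 1 of 4 markers at 0 counts throughout. The labels do not say whether the libraries of a genotype came from different mice, and the p-values cover only the variation among the libraries at hand. In bulk RNA, fewer cells of a type and less RNA per cell cannot be told apart.

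The sequences below belong to the genes on which the genotype comparisons turn. The first pair are coding sequences, printed because most of the called genes have short ones: Rpl38 is the gene with the largest called change, and Rpl41 encodes the smallest of the proteins. Capitals mark the start and stop codons, in transcripts of GENCODE M21 on GRCm38 (mm10). Rpl38 lies at chr11:114668524-114672331 on the plus strand and Rpl41 at chr10:128548114-128549305 on the minus strand.
Rpl38: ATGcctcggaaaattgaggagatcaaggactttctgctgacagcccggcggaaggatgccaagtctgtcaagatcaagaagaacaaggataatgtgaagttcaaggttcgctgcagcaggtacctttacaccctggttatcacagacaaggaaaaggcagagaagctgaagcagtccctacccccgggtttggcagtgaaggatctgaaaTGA
Rpl41: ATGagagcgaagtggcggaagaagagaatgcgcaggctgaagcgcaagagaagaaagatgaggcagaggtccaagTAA

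Promoters from RefSeq on GRCm38.p6 (250 bases before to 50 bases after each annotated start) matched 62 of the 82 genes, and 6 of the 8 genes called in any comparison. The letters CCGGAA, the core of sites that ETS-family factors bind, stood on either strand, in any promoter of the gene, in 34 of these 62 genes (54.8%; 73 promoters), against 4503 of the 27025 genes with a promoter in the table (16.7%). The windows below, 80 bases before to 20 bases from the annotated start and read along the gene's strand, are those of 4 of the called genes that hold the motif there, with CCGGAA in capitals. The Rpl37 window is at chr15:5116533-5116632 on the plus strand and the Rpl38 window at chr11:114668500-114668599 on the plus strand. The Rpl41 window is at chr10:128549149-128549248 on the minus strand, and the window of 1 of the annotated Rps21 starts at chr2:180257299-180257398 on the plus strand.
Rpl37: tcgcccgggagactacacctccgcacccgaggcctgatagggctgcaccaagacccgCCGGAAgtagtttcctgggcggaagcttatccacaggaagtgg
Rpl38: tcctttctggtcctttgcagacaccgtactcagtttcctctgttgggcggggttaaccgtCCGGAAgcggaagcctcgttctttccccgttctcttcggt
Rpl41: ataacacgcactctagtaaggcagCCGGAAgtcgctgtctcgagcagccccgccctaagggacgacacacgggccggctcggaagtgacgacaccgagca
Rps21: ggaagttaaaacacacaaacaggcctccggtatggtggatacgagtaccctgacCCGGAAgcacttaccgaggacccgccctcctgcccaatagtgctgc

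The other motifs searched were spread differently over the 62 genes. GCCAT, the core of YY1 sites, stood on either strand in a promoter of 58.1% of them and of 44.2% of all genes. TATAAA stood on either strand in 11.3% and 15.7%. A C followed by 7 or more C or T, within 30 bases either side of the start on the gene's strand, was found for 53.2% of the 62 genes and 20.6% of all, and a C exactly at the annotated start with 4 C or T after it in 21% and 3.01%. These matches describe the letters only. Of the 6 called genes with a promoter, 5 held CCGGAA and 2 a pyrimidine tract.

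Ribosomal protein messages were abundant in all 3 genotypes and spread over a wide range of levels. Divided by transcript length, the tested genes had a median of 547 CPM per kb over the 9 libraries. The highest were Rplp1, an acidic protein of the ribosomal stalk, at 1548 CPM per kb, Rpl41 at 1414, Rpl10, which helps to shape the centre of peptide bond formation, at 1412, Rplp0, the base of the stalk, at 1059, and the small subunit gene Rps14 at 1025 CPM per kb. The lowest tested were Rpl24 at 0.777, Rps10 at 8.53, Rpl13a at 20.3, Rpl22l1 at 42 and Rpl7l1 at 73.0 CPM per kb. Rps20 was also low per kb, at 81.8, with an annotated transcript of 3706 bases that is long for a coding length of 357 bases.

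The 3 lowest genes were among the 4 whose exons lie in part under another annotated gene of the same strand; the other was Rpl19, with 10.7% of its exon bases under Gm27597 and a level of 590.5 CPM per kb. In GENCODE M21, 91.6% of the exon bases of Rps10 lie under RPS10-NUDT3, 71.5% of those of Rpl24 under Gm28037 and 59.3% of those of Rpl13a under Gm45713, and each of these other genes had 0 counts in all 9 libraries. Rpl35, Rpl23a and Rpl5, of whose exon bases 68.3%, 55.4% and 46.6% lie under a gene of the opposite strand, were at 235, 322 and 288 CPM per kb. For Rps10, Rpl24 and Rpl13a the deposited counts are therefore uncertain as levels, and whether overlap caused the low counts was not tested. Among all 82 genes, 69 had no exon base under another gene.

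**Figure D1:**
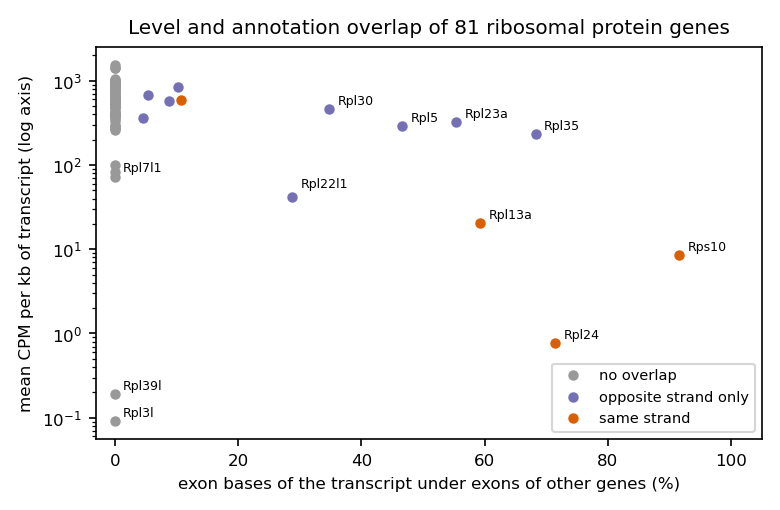
Mean level over the 9 libraries (CPM per kb of transcript, log axis) against the share of exon bases under exons of other annotated genes, for the 81 ribosomal protein genes with a count; colours give the strand of the other gene. Rpl24, Rps10 and Rpl13a, at 0.777, 8.53 and 20.3 CPM per kb, are the lowest of the tested genes and have same-strand overlaps of 71.5%, 91.6% and 59.3%.

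The paralogs of core ribosomal proteins lay below their counterparts per kb or were not detected in these macrophages. Rpl10l, known from the testis, had 0 counts in every library, which allows a level of up to 0.122 to 0.174 CPM (3 counts per library, counting error only). Rpl3l, known from striated muscle, had 3 to 5 counts in SE libraries, 1 to 3 in SA libraries and 0 to 3 in WT libraries. Rpl39l, also known from the testis, had 1 to 4 counts in SE libraries, 1 to 6 in SA libraries and 0 to 1 in WT libraries. These 3 were the genes left out of the tests. Rpl22l1 reached 42 CPM per kb beside 415 CPM per kb for Rpl22, and Rpl7l1 73.0 CPM per kb beside 489.8 CPM per kb for Rpl7. Rps27l, which the name rule leaves out, was at 121 CPM per kb beside 488 CPM per kb for Rps27.

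SE macrophages had more ribosomal protein RNA of several genes than SA macrophages, and the genes involved were mostly those of the shortest proteins. Of the 79 tested genes, 8 were higher in SE than SA (edgeR quasi-likelihood test, adjusted p under 0.05), which is 10.1% beside a background of 4.77% among all genes tested, and 0 were lower, beside a background of 5.42%. By unadjusted p under 0.05, 27 were higher and 3 lower (backgrounds 11.4% and 11.3%), and DESeq2 called 10 higher and 0 lower. The 8 were Rpl38, Rpl37, Rps21, Rpl41, Rpl39, Rpl37a, Rplp1 and Rps20. Among other protein-coding genes of at least 50 CPM, 30 of 346 with 300 to 600 coding bases were called higher and 18 lower. Of the 3450 such genes with over 600 coding bases, 237 were called higher and 232 lower. Against WT, SA macrophages had less RNA of 4 genes, Rpl38, Rps21, Rpl37 and Rpl39. That is 5.06% of the 79, beside a background of 2.1% of all genes called lower, and 0 were higher, beside a background of 1.97%. By unadjusted p under 0.05, 12 were lower and 0 higher in SA (backgrounds 7.0% and 6.69%), and DESeq2 called 6 lower and 0 higher. Of the 346 and 3450 other genes, 11 and 107 were called lower in SA than WT, and 6 and 63 higher. Both comparisons share the 3 SA libraries and are not independent of each other.

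Rpl38, a large subunit protein whose loss in mice alters the skeleton, had 101, 118 and 111 CPM in SE libraries 1 to 3, 70.3, 56.6 and 84.8 CPM in SA libraries and 93.0, 129 and 101 CPM in WT libraries. All SA libraries lay below all SE and all WT libraries, while SE and WT libraries overlapped. The level was 1.56-fold higher in SE than SA (log2 0.64 ± 0.14 standard error, edgeR adjusted p = 0.0139) and 1.52-fold lower in SA than WT (log2 -0.60 ± 0.14 standard error, edgeR adjusted p = 0.0339).

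Rpl37, a zinc-binding protein of the large subunit, had 254, 274 and 273 CPM in SE libraries, 188, 176 and 226 CPM in SA libraries and 230.1, 300.3 and 249 CPM in WT libraries. SA libraries again lay below those of both other genotypes. It was 1.36-fold higher in SE than SA (log2 0.44 ± 0.10 standard error, edgeR adjusted p = 0.00714) and 1.32-fold lower in SA than WT (log2 -0.40 ± 0.10 standard error, edgeR adjusted p = 0.0237).

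Rps21, of the small subunit, had 211, 245 and 227 CPM in SE libraries, 174, 149.5 and 187 CPM in SA libraries and 201, 263 and 217 CPM in WT libraries. Rpl39, which lines the exit tunnel of the nascent protein, had 218, 244 and 198 CPM in SE libraries, 173, 155 and 194 CPM in SA libraries and 207, 227 and 212 CPM in WT libraries. In neither gene did SA overlap SE or WT, though for Rpl39 the highest SA library and the lowest SE library were 194 and 198 CPM. Rps21 was 1.34-fold higher in SE than SA and 1.33-fold lower in SA than WT (edgeR adjusted p = 0.0109 and 0.0214). Rpl39 was 1.26-fold higher in SE than SA and 1.24-fold lower in SA than WT (edgeR adjusted p = 0.0140 and 0.0462).

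4 more genes were called in SE against SA but not in SA against WT, and the difference between these comparisons was not tested. Rpl41, a very basic peptide at the interface of the subunits, had 662, 718 and 676 CPM in SE libraries, 523, 445 and 582 CPM in SA libraries and 558, 782 and 613 CPM in WT libraries. Rpl37a, another zinc-binding protein, had 386, 432 and 395 CPM in SE libraries, 340.1, 302 and 356 CPM in SA libraries and 365, 465 and 386 CPM in WT libraries. SE lay wholly above SA in both genes, and the WT libraries spanned the SE range. In SE against SA, Rpl41 was 1.33-fold higher and Rpl37a 1.22-fold higher (edgeR adjusted p = 0.0325 and 0.0410); in SA against WT, they gave log2 values of -0.33 and -0.28 (edgeR adjusted p = 0.149 and 0.0760).

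The stalk gene Rplp1 had 815, 815 and 852 CPM in SE libraries, 726, 688 and 703 CPM in SA libraries and 726, 827 and 799.7 CPM in WT libraries. Rps20, of the small subunit, had 310.4, 327 and 320.5 CPM in SE libraries, 292, 262 and 269.8 CPM in SA libraries and 300.1, 328 and 319 CPM in WT libraries. These were the smallest of the called differences, with SE wholly above SA in both. Rplp1 was 1.17-fold and Rps20 1.16-fold higher in SE than SA (edgeR adjusted p = 0.0193 and 0.0270).

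Rps29, a zinc-binding protein of the small subunit, showed the widest gap of any tested gene with SE above SA, yet was not called. It had 216, 277 and 241 CPM in SE libraries, 151, 116 and 191 CPM in SA libraries and 196, 305 and 192 CPM in WT libraries. SE lay above SA, and WT lay above SA narrowly, with the lowest WT library at 192 and the highest SA library at 191 CPM. Its log2 difference was 0.68 ± 0.24 standard error between SE and SA and -0.60 ± 0.24 standard error between SA and WT (edgeR adjusted p = 0.139 and 0.328).

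**Figure D2:**
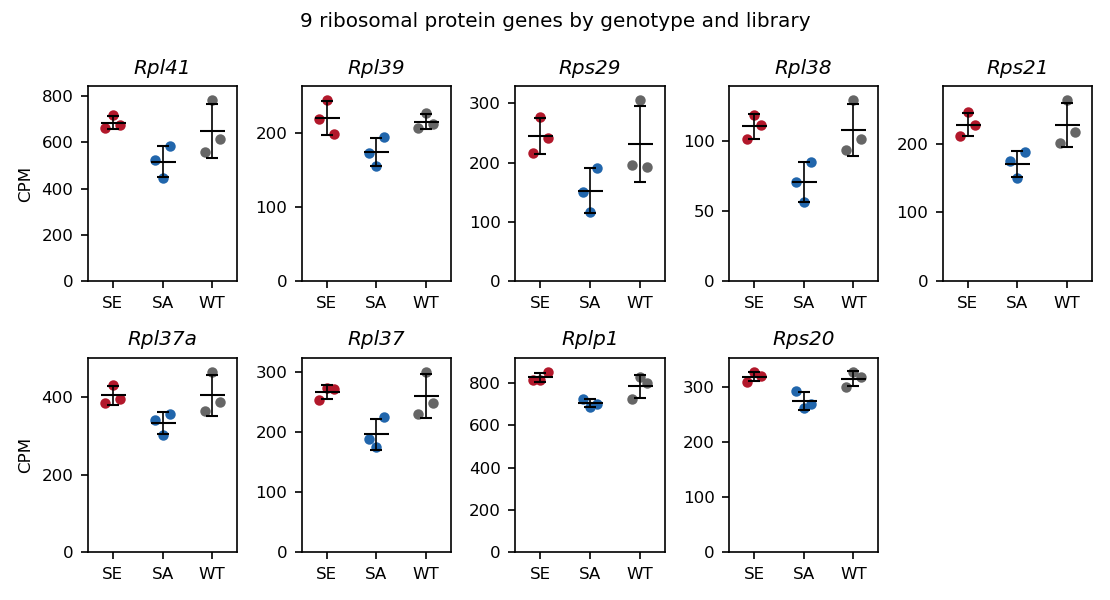
CPM of the 8 called genes and Rps29 in each library (points), with the mean and SD of the 3 libraries of each genotype (bars); every vertical axis starts at 0. SA libraries lie below all SE libraries in each of the 9 panels, and 1 WT library, WT2, is the highest WT value in each.

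The extremes of the gap between SA and WT lay in a pair of libraries. WT2 was the highest WT library and SA2 the lowest SA library for each of the 9 genes plotted, and over all 79 tested genes this was so for 56 and 53 genes. The same count was not made over all genes tested. All 4 calls in SA against WT were lost when SA1, SA2, WT2 or WT3 was left out in turn, with the count at 0 each time, and also when SA2 and WT2 were left out together, an alternative chosen after seeing the data. The sizes moved less than the calls without SA1 or WT3, at log2 -0.60 and -0.64 for Rpl38 and -0.42 and -0.44 for Rps21, beside -0.60 and -0.41 with all libraries. Without SA2 and WT2 they were -0.32 for Rpl38 and -0.21 for Rps21. Since SA2 and WT2 hold the extremes of these genes, leaving them out shrinks the difference whatever its origin. Over all alternatives the adjusted p in edgeR or DESeq2 reached at most 0.323 for Rpl38, 0.231 for Rpl37, 0.211 for Rps21 and 0.329 for Rpl39, with every log2 value below 0. Of 21 alternatives, the call in SA against WT held under 15 for Rpl37 and Rps21, 14 for Rpl38 and 10 for Rpl39. The Rpl39 call was also lost under library totals alone, a minimum count of 50 and the replicate block. In SE against SA, 8 genes were called without SA2 and WT2, 1 (Rpl38) without SA2 alone and 16 without WT2 alone; Rps29 was among the 8, at log2 0.52, and Rps20 was not. With SA1, SE1 or SE2 left out, 4 were called. Of 21 alternatives, the call in SE against SA held under 20 for Rpl37 and Rps21, 19 for Rpl38, 16 for Rpl39, 15 for Rplp1, 13 for Rpl41, 11 for Rps20 and 8 for Rpl37a; DESeq2 did not call Rpl41 (adjusted p = 0.0819).

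Most of the called genes had short coding sequences. The length classes were chosen with earlier results of these data known, so the counts by class are a description and not a separate test. Of the 79 tested genes, 9 have under 300 coding bases: Rpl41, Rpl39, Rps29, Rps28, Rpl38, Rps21, Rps27, Rpl37a and Rpl37. Their median log2 difference was 0.41 in SE against SA, with all 9 above 0 and 6 called higher (background 4.77%), beside medians of 0.10 for the 47 genes of 300 to 600 bases and 0.06 for the 23 longer genes. In SA against WT the 9 had a median of -0.36, with all 9 below 0, 4 called lower (background 2.1%) and 7 with every SA library below every WT library (background 9.71%), beside -0.06 and -0.01 for the longer classes. In SE against WT the 3 medians were 0.03, 0.03 and 0.05. With SA2 and WT2 left out, the median of the 9 became 0.31 in SE against SA and -0.18 in SA against WT.

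**Figure D3:**
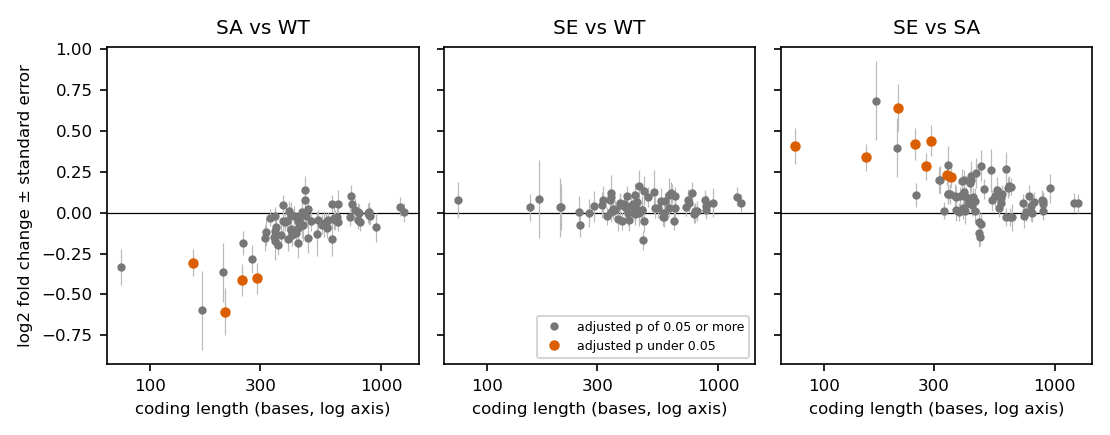
Log2 fold change ± standard error of each ribosomal protein gene of 50 CPM or more (75 genes) against coding length (log axis) in the 3 comparisons; orange marks an adjusted p under 0.05. Genes of under 300 coding bases lie below 0 in SA vs WT and above 0 in SE vs SA, and around 0 in SE vs WT.

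The other two short genes were not called. Rps28, of the small subunit, had 203, 245 and 218 CPM in SE libraries, 169, 132 and 205 CPM in SA libraries and 186, 273 and 193 CPM in WT libraries. Rps27, a zinc-binding small subunit protein, had 163, 188 and 157 CPM in SE libraries, 145, 157 and 169 CPM in SA libraries and 176, 184 and 175 CPM in WT libraries. For Rps28, SA2 was the lowest and WT2 the highest of the 9 libraries, with all genotypes overlapping. For Rps27, SA lay below WT without overlap, and SE overlapped both.

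Across the 75 genes of at least 50 CPM, the log2 difference and coding length had a Spearman rho of 0.64 in SA against WT, 0.10 in SE against WT and -0.51 in SE against SA. GC content of the coding sequence gave -0.22, 0.20 and 0.29. Genes are not independent replicates, and all points in a comparison come from the same 6 libraries. Other protein-coding genes of at least 50 CPM and under 300 coding bases (66 genes) had medians of 0.10 in SE against SA, -0.03 in SA against WT and 0.07 in SE against WT. In SE against SA, 15 of the 66 were called higher and 1 lower (backgrounds 4.77% and 5.42%), and 27 had every SE library above every SA library (background 14.2%). In SA against WT, 1 of the 66 was called higher and 2 lower (backgrounds 1.97% and 2.1%).

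By library, the 9 short genes had a median deviation from their 9-library mean of 0.09, 0.26 and 0.14 (log2) in SE1, SE2 and SE3, -0.23, -0.45 and -0.07 in SA1, SA2 and SA3, and -0.04, 0.35 and 0.06 in WT1, WT2 and WT3. The 66 other short genes gave 0.08, 0.09 and 0.01 in SE, -0.04, -0.06 and -0.05 in SA, and -0.02, -0.01 and -0.02 in WT. SA2 and WT2 held the lowest and the highest of these values for the short ribosomal protein genes, and SA2 and SE2 for the other short genes, over a range several times narrower. The short genes also varied more within genotypes, with a median SD of 0.16 (log2), against 0.08 for all 79 genes and 0.13 for all genes tested. Rpl30 was the steadiest of the 79 (SD 0.02), and Rpl24 (0.40) and Rps29 (0.32) were the most variable. The part of RNA quality or library preparation in this pattern was not tested.

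**Figure D4:**
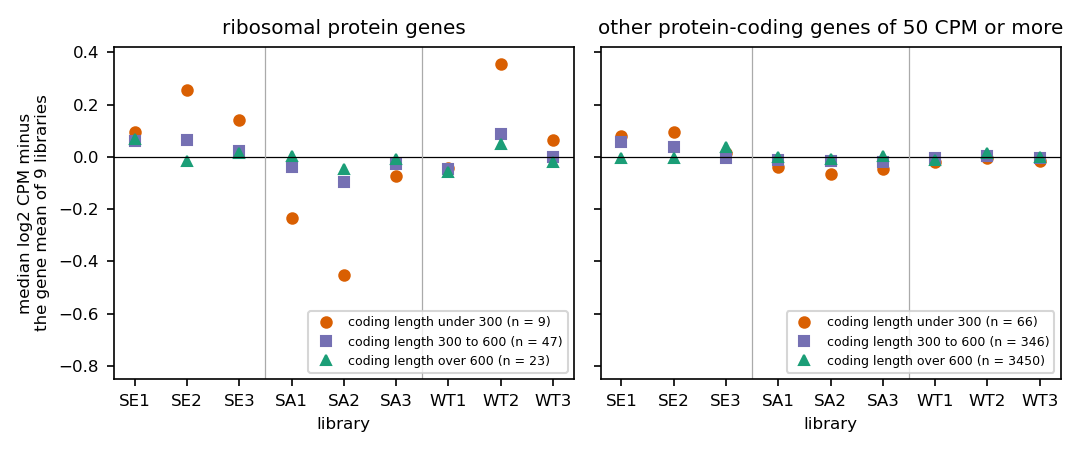
Median log2 CPM, relative to each gene's mean over the 9 libraries, in 3 classes of coding length (bases), for ribosomal protein genes (left) and other protein-coding genes of 50 CPM or more (right). On the left the shortest class is lowest in SA2 (-0.45) and highest in WT2 (0.35); on the right all classes lie within 0.1 of 0.

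Taken over all 79 genes, the shifts were small beside those of the short genes. The median log2 difference was 0.09 in SE against SA, -0.05 in SA against WT and 0.03 in SE against WT, where the median of all genes tested was 0.00 in each. In SE against SA, 67 of 79 genes lay above 0 (background 49.4%), and 30 had every SE library above every SA library, which is 38.0% beside a background of 14.2%. In SA against WT, 60 of 79 lay below 0 (background 49.6%), and 13 had every SA library below every WT library, which is 16.5% beside a background of 9.71%. Other protein-coding genes of at least 50 CPM gave 99 of 346 (300 to 600 coding bases) and 661 of 3450 (over 600) with SE wholly above SA. With SA wholly below WT they gave 48 of 346 and 399 of 3450. Without SA2 and WT2 the median of the 79 genes in SA against WT was 0.00. Rps6, the substrate of S6 kinase and a longer gene, had 564, 539 and 527 CPM in SE libraries, 547, 562 and 519 CPM in SA libraries and 515, 513 and 540.4 CPM in WT libraries, all overlapping, with a log2 difference of 0.00 ± 0.06 standard error between SE and SA.

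**Figure D5:**
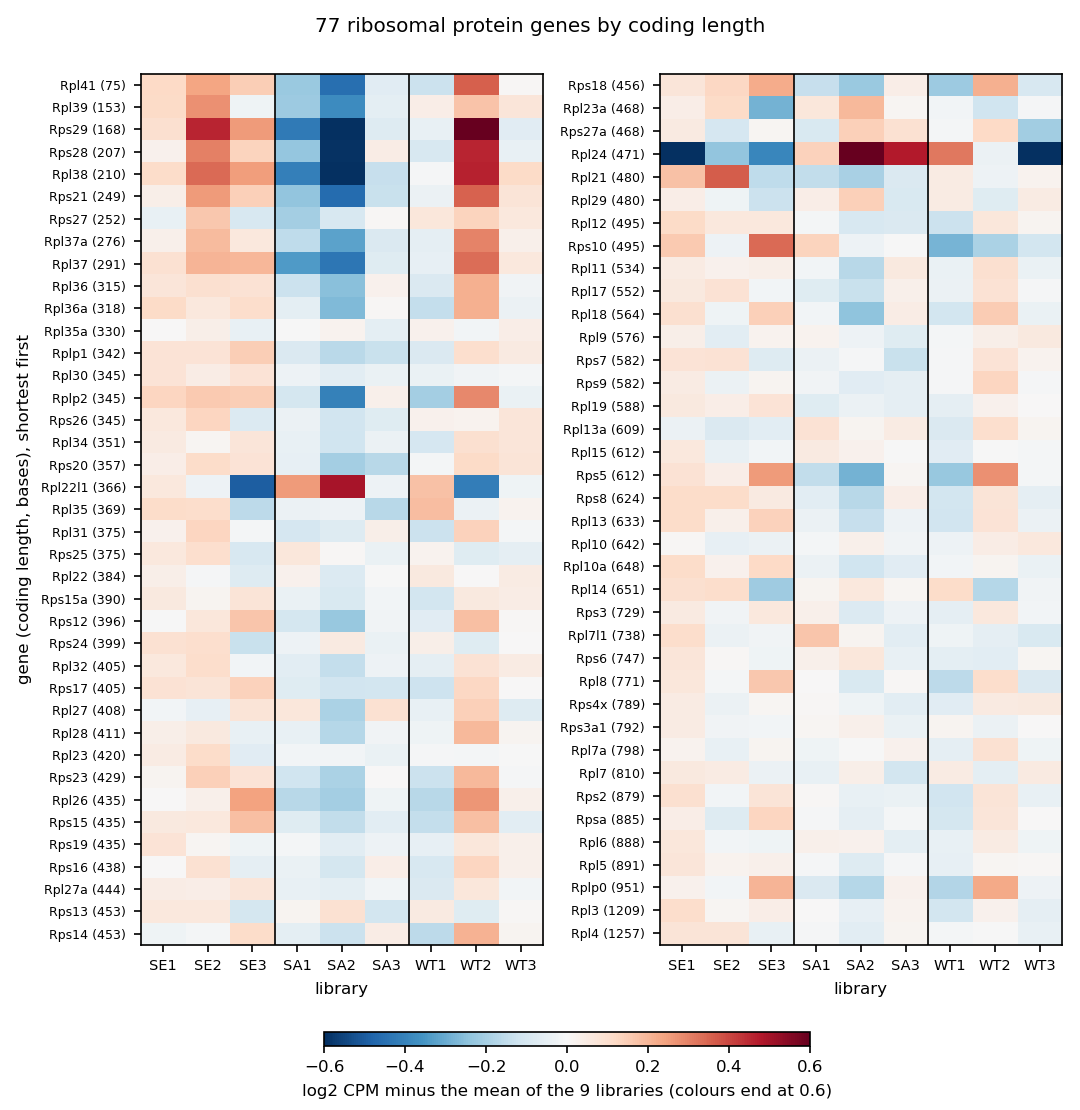
Log2 CPM of 77 of the 79 tested ribosomal protein genes in the 9 libraries, relative to each gene's mean, ordered by coding length (bases, in brackets); colours end at 0.6 in both directions. The top rows of the left panel, the shortest genes, are blue in SA1 and SA2 and red in SE2 and WT2, and most rows of the right panel are pale.

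No ribosomal protein gene was called between SE and WT macrophages. In SE against WT, 0 of 79 genes were called higher and 0 lower by edgeR (backgrounds 2.35% and 2.69%) and 0 by DESeq2, while 1 gene in each direction had an unadjusted p under 0.05 (backgrounds 9.02% and 9.25%). Of the 79, 59 lay above 0 (background 49.2%). The 95% interval of the difference lay within 0.5 on the log2 scale (1.41-fold) for 74 of the 75 genes of at least 50 CPM, with a median half-width of 0.13. Rps18, of the small subunit, gave the largest positive log2 value above 50 CPM, 0.16, with 565, 586 and 627 CPM in SE libraries and 462, 622 and 503 CPM in WT libraries, which overlapped (edgeR adjusted p = 0.377). In all, 5 of 79 genes had every SE library above every WT library (6.33%, background 10.1%).

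The count of 0 in SE against WT changed with the libraries used. Without SA2 and WT2, 4 genes were called higher in SE, among them Rps18 at log2 0.30, Rplp2 at 0.26 and Rpl41 at 0.23. Calls over all genes also rose there, to 1025 with 529 higher, from 680 with 317 higher in the main fit. The range of all-gene counts with each library left out in turn is given further below. Without WT2 alone, Rps18 and Rps15 were called higher, and without SE3 alone, Rpl21 was, at log2 0.26 (edgeR adjusted p = 0.0348).

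The small and the large subunit gave similar medians. The median log2 difference in SE against SA was 0.09 for the 31 small subunit genes and 0.10 for the 48 large subunit genes. Of these, 2 and 6 were called higher (6.45% and 12.5%, background 4.77%). In SA against WT the medians were -0.06 and -0.05, with 1 and 3 called lower (3.23% and 6.25%, background 2.1%). Summed counts of small over large subunit genes gave a ratio of 0.697 ± 0.001 in SE, 0.704 ± 0.006 in SA and 0.702 ± 0.001 in WT (SD, n = 3 each). The exact two-sided permutation p for this ratio was 0.2 in SE against SA, 0.7 in SA against WT and 0.1 in SE against WT, where 0.1 is the smallest that 3 against 3 libraries allow.

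By function, medians differed in size between small groups, and these differences were not tested. The stalk genes Rplp0, Rplp1 and Rplp2 had a median of 0.23 in SE against SA, with Rplp1 called, and -0.15 in SA against WT with 0 called. Rplp2 itself had 353, 359 and 358 CPM in SE libraries, 300.2, 244 and 329 CPM in SA libraries and 280.4, 393 and 314 CPM in WT libraries, so that SE lay above SA while the range of WT overlapped both. Rpl5 and Rpl11, which bind the 5S RNA and can hold back MDM2, gave 0.07 and 0.08 in SE against SA, and neither was called. Of 19 tested genes whose human counterparts are mutated in Diamond-Blackfan anaemia, 0 were called in any comparison by edgeR. The backgrounds run from 1.97% to 5.42% by comparison and direction, so a count of 0 among so few genes says little. Their medians were 0.10 in SE against SA, -0.05 in SA against WT and 0.03 in SE against WT. Rpsa gave 0.06 and Rps27a, which is made as a fusion with ubiquitin, -0.06 in SE against SA.

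At the other end of the fold changes stood genes of low level. Rpl22l1, which can replace Rpl22 in the large subunit, had 23.8, 22.3 and 16.1 CPM in SE libraries, 27.2, 32.1 and 22.3 CPM in SA libraries and 25.7, 17.1 and 22.3 CPM in WT libraries. The libraries of the 3 genotypes overlapped, and the log2 value of -0.39 between SE and SA was not called (edgeR adjusted p = 0.191). Rpl22 itself gave 0.00. Rpl24 gave the most negative value, -1.10, from levels of 0.294 to 0.407 CPM in SE libraries and 0.529 to 1.12 CPM in SA libraries (edgeR adjusted p = 0.117).

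The share of each library's counts on ribosomal protein genes gives the same comparison as 1 number. It was 3.51, 3.48 and 3.41% in SE libraries, 3.34, 3.24 and 3.36% in SA libraries and 3.28, 3.55 and 3.39% in WT libraries. The SE libraries lay above the SA libraries, and the WT libraries overlapped those of both. The difference was 0.155 percentage points in SE against SA (exact permutation p = 0.1, the smallest possible), -0.0964 in SA against WT (p = 0.4, exact) and 0.0588 in SE against WT (p = 0.6, exact). On the 9 short genes the share was 0.251 ± 0.018% in SE, 0.197 ± 0.024% in SA and 0.248 ± 0.032% in WT (SD, n = 3 each).

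Reads of ribosomal protein genes can also fall on their many processed pseudogenes. By name, 301 pseudogenes were in the table, 186 had a count and 70 were tested. Together they held 0.0720 ± 0.0021% of counts in SE, 0.0724 ± 0.0010% in SA and 0.0714 ± 0.0014% in WT (SD, n = 3 each). Of the 70, 3 were called higher in SE than SA (Rps4l, Rpl6l and Rpl3-ps1; background 4.77%), 1 lower in SA than WT (Rpl6l; background 2.1%) and 0 in SE against WT, counts near or below the backgrounds. How reads that match several places were counted is not given in the sources used here, so genes with near-identical copies are uncertain to that extent.

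Of 5 ribosomal genes that the name rule does not take, among them Fau, Rack1, Rps27l and Rpl36al, 0 were called in any comparison by edgeR (backgrounds 1.97% to 5.42%). Rps27l, a p53-induced relative of Rps27, had 65.5, 68.9 and 56.0 CPM in SE libraries, 55.9, 62.6 and 56.9 CPM in SA libraries and 64.3, 52.2 and 61.2 CPM in WT libraries, which all overlapped.

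Genes that build ribosomes were called higher in SE against both other genotypes. Of 76 tested assembly factors, 13 were higher in SE than WT and 0 lower, beside the backgrounds of 2.35% and 2.69%, with a median log2 difference of 0.17. In SE against SA, 8 were higher and 0 lower (backgrounds 4.77% and 5.42%), with a median of 0.11. In SA against WT 0 were called (backgrounds 1.97% and 2.1%), with a median of 0.05. Nop56, a core protein of snoRNA particles that guide rRNA methylation, had 57.0, 57.7 and 52.1 CPM in SE libraries, 46.7, 44.8 and 47.2 CPM in SA libraries and 45.3, 37.2 and 36.6 CPM in WT libraries. SE lay above both other genotypes, by 1.40-fold over WT (edgeR adjusted p = 0.00172) and 1.20-fold over SA (edgeR adjusted p = 0.0448). Its call over WT held under all 21 alternatives and that over SA under 9.

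Grwd1, a chaperone of Rpl3, had 26.7, 24.8 and 29.9 CPM in SE libraries, 22.6, 18.9 and 20.1 CPM in SA libraries and 19.2, 21.8 and 18.6 CPM in WT libraries. It was 1.37-fold higher in SE than WT and 1.32-fold higher than SA (edgeR adjusted p = 0.0083 and 0.0112). Tsr1, a factor of small subunit maturation, was 1.34-fold higher in SE than WT (edgeR adjusted p = 0.00311). Against SA, Rrp12 was 1.33-fold and Mrto4, which holds the place of the stalk base on new large subunits, 1.27-fold higher in SE (edgeR adjusted p = 0.00363 and 0.0198). The count in SE against WT was 2 without WT3, 8 without SE1 and 20 without WT2, all of them higher in SE. The count in SE against SA was 1 without SA2 and 14 without WT2.

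Among 26 regulators of ribosomal protein genes and of mTORC1, Myc had 55.6, 49.5 and 49.9 CPM in SE libraries, 48.3, 37.7 and 44.1 CPM in SA libraries and 36.6, 37.1 and 32.5 CPM in WT libraries. SE lay above WT, and SA lay narrowly between them. Myc, a driver of ribosome production, was 1.46-fold higher in SE than WT (edgeR adjusted p = 0.0012). Its differences in SE against SA and in SA against WT were not called (edgeR adjusted p = 0.0811 and 0.0838). Eif4e, which binds the mRNA cap, was 1.18-fold higher in SE than WT (edgeR adjusted p = 0.0346), and Deptor, an inhibitor of mTOR, was 1.24-fold lower (edgeR adjusted p = 0.0488) and also 1.25-fold lower in SE than SA (edgeR adjusted p = 0.0234). Myc kept its call under all 21 alternatives, Eif4e under 11 and Deptor in SE against WT under 5.

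Few other genes of TOP messages were called. Of 21 translation factors and other TOP messages, 1 was called: Eef1g, a subunit of elongation factor 1, was 1.16-fold higher in SE than WT (edgeR adjusted p = 0.0416; background 2.35%). That call held under 9 of 21 alternatives. The median of the 21 was -0.01 in SE against SA, 0.01 in SA against WT and 0.03 in SE against WT. Of 15 RNA polymerase I genes, 11 tested snoRNA host genes and 13 tested genes of ribosome quality control and the MDM2-p53 pathway, 0 were called in any comparison by edgeR. With backgrounds of 1.97% to 5.42% by comparison and direction, a count of 0 in lists this short says little.

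Several genes outside the ribosome moved with genotype beside these results. Stat6 itself had 291, 284 and 312 CPM in SE libraries, 195, 199.5 and 199.8 CPM in SA libraries and 198, 201 and 187 CPM in WT libraries, 1.51-fold higher in SE than WT (edgeR adjusted p = 6.27e-06). Counts do not show the exchanged residue. Of 9 fibroblast and mesothelial markers, 4 were tested and all 4 were called higher in SA than WT (background 1.97%), 4 lower in SE than SA (5.42%) and 2 higher in SE than WT (2.35%); the summed level of the 9 was 7.45 to 11.5 CPM in SE, 41.6 to 47.0 CPM in SA and 3.24 to 4.65 CPM in WT, and 1 marker was at 0 in every library. Of 6 proliferation genes, 4 were called lower in SA than WT (background 2.1%). In SE, 3 were higher than in SA (4.77%) and 1 higher than in WT (2.35%). Of 9 tested handling stress genes, 2 were higher (4.77%) and 1 lower (5.42%) in SE than SA. Against WT, 1 was higher in SE (2.35%). Of 2 tested endothelial markers, 1 was lower in SA than WT (2.1%). In SE, 1 was higher than in SA (4.77%) and 1 higher than in WT (2.35%). The 1 tested B cell marker, 1 of 2 tested eosinophil markers and 1 of 2 tested dendritic cell markers were lower in SE than SA (5.42%). Their part in the ribosomal protein values was not tested.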

How the data were processed

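Raw read counts per Ensembl gene in the 9 libraries were deposited by the authors, and 0 sample columns were left unused. Per the submitters' processing notes, HISAT2 2.1.0, featureCounts and mm10 were used; for annotation release, strand setting and multi-mapped reads, nothing is given in the sources used here. Of 55401 IDs, 55141 matched GENCODE M21 (GRCm38) and 260 did not. Coding and transcript lengths came from the shortest principal transcript. The members, gene lists and length classes were chosen with earlier results of these data known.

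A single fit took in the 9 libraries, with edgeR 4.0.16 in R 4.3.3 (filterByExpr, minimum count 10, total 15; TMM; robust quasi-likelihood; genotype alone; 6 residual degrees of freedom; biological coefficient of variation 6.75%). P-values were adjusted by Benjamini-Hochberg over 13501 genes. CPM were taken over the tested-gene total of each library multiplied by its TMM factor, and intervals from the t distribution of the fit. DESeq2 1.42.0 was an alternative, with other scalings, filters, length corrections and left-out libraries. Scripts were tested on simulated counts. Genes named were those called, the extremes of fold change and level, paralogs, and set role groups. Rps15, Rpl19, Rpl21, Rpl22 and short genes outside this rule were named after their values were seen. Some genes are not reported here. Same-numbered libraries did not deviate together.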

Additional observations from a re-analysis of the deposited data

How the results depend on the processing

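Leaving out each library in turn moved the count of ribosomal protein genes called from 4 to between 0 and 6 in SA against WT, from 0 to between 0 and 2 in SE against WT, and from 8 to between 1 and 16 in SE against SA. Counts over all genes ran from 297 to 652, 292 to 1097 and 781 to 1762 in these comparisons, and counts of assembly factors from 2 to 20 in SE against WT and 1 to 14 in SE against SA. The median log2 difference ran from -0.08 to -0.02, -0.01 to 0.08 and 0.07 to 0.11. The share of counts ran from -0.159 to -0.0228, -0.00356 to 0.132 and 0.117 to 0.185 percentage points, so in SE against WT it reversed without WT1 (-0.00356) and without WT1 and SE2 (-0.0110).

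Without SA2 and WT2 (chosen after seeing the data), SA against WT had 0 ribosomal protein genes called and a median of 0.00 (0.0028), SE against WT had 4 of them and 1025 genes in all, and SE against SA had 3 assembly factors. Without WT2 and SE3, the ribosomal protein calls were 2, 3 and 19 in SA against WT, SE against WT and SE against SA, 903 and 1215 genes in all were called in the first pair, assembly factors numbered 22 in SE against WT and 16 in SE against SA, and the SE against WT median was 0.0836. Without WT1 and SE2, SE against WT had 372 genes called and 6 assembly factors. Fitting only the groups compared gave 438 genes in SE against WT and 15 ribosomal protein genes in SE against SA. With no filter on low counts, 20 assembly factors were called in SE against WT and 16 ribosomal protein genes (15 higher, 1 lower) in SE against SA. Scaling by library totals alone left 4 assembly factors in SE against SA, with 6 ribosomal protein genes higher and 1 lower. A correction for coding length, also chosen after seeing the data, gave 4 ribosomal protein genes in SE against SA (3 higher, 1 lower) and 1 in SE against WT, as did a transcript length correction there. The cause of these changes was not tested.

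The replicate numbers did not pair the libraries: same-numbered libraries correlated at -0.19 to 0.11. Differently numbered libraries reached wider values, -0.26 for WT1 with SE3, 0.27 for WT2 with SE3 and 0.18 for WT1 with SE2. WT2 with SE3 and WT1 with SE2 are the pairs left out together above. Why they deviated together was not tested. With the replicate block, 3, 0 and 6 ribosomal protein genes were called in SA against WT, SE against WT and SE against SA. Of 546 single-gene checks under alternatives, 402 kept their side of the threshold and 144 lost it, all with unchanged direction. Differences of about 0.1 on the log2 scale lie within the intervals at this depth and spread.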
